A study of Xenopus laevis with 2 samples.

Results

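The cytoplasmic ribosomal protein genes of Xenopus laevis were compared between dorsal posterior pieces of wildtype neurulae and of neurulae labelled as depleted of Derriere. Members were all probe sets of the Affymetrix Xenopus laevis array whose single platform gene symbol, without its copy suffix, is that of a protein of the large subunit (rpl, rplp) or the small subunit (rps, rpsa). This gave 90 of 15491 frog probe sets and 73 genes of 7531, of which 47 encode large subunit proteins and 26 small subunit proteins. Xenopus laevis carries a long and a short subgenome, and a gene's copies from them end in .L and .S. The members held 36 .L copies, 36 .S copies and 1 gene without a suffix, rps9. The RefSeq gene table of the Xenopus_laevis_v10.1 assembly lists 134 genes under the same rule, so the array reads only part of the family by these symbols.

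A cytoplasmic ribosome joins a small subunit, which binds the messenger RNA and checks the pairing of codon and transfer RNA, to a large subunit, which forms the peptide bond and holds the exit tunnel for the new protein. Each subunit carries a single copy of most of its proteins, apart from the acidic stalk proteins, so a growing cell makes most of them in matched amounts. In vertebrates their messenger RNAs start with a run of pyrimidines, the 5′ TOP, through which growth signals adjust their translation. In frog embryos the egg supplies a large store of ribosomes, and ribosomal protein synthesis starts again during development.

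Both groups were dissected at stage 18, and the pieces are described by the labels as mostly mesoderm. One group was wildtype, and the labels do not say whether it was injected. The other was injected on the lateral side of the dorsal blastomeres at the 4-cell stage with 2 ng of a morpholino, an antisense oligonucleotide, against Derriere (gdf3, a TGF-beta ligand of mesoderm and posterior patterning), together with GFP as a tracer. A morpholino acts only in the cells that inherit it, and the share of such cells in the pieces is not given. Each group had 1 array, so differences have no replicate check and no p-values are given. In bulk pieces, fewer cells of a type and less RNA per cell cannot be told apart.

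The transcript of the targeted gene, gdf3.S, read 552.0 in the wildtype-labelled array and 2318.6 in the depleted-labelled array. A morpholino need not lower its target transcript, so this reading does not settle the labels, and all directions given here rest on the labels as deposited. The median signal over all frog probe sets was 75.4 and 74.1. Of 7 listed markers of paraxial and tail mesoderm, 6 had a probe set, and all 6 passed the signal filter. Their summed signals were 9303.5 in the wildtype-labelled array and 8985.3 in the depleted-labelled array. The 2 mespa copies carried that lower sum, at log2 ratios of -0.68 and -0.43, while 5 of the 8 mesodermal probe sets were above 0, such as msgn1.L at 0.21, and the median was 0.06. Of 5 epidermal markers 4 had a probe set, and all 4 passed the filter. They summed to 9532.5 and 8826.8, and itln1.L alone went from 8244.9 to 7025.5. Of the 5 epidermal probe sets, itln1.L among them, 3 were above 0, with a median of 0.48. One of these, cdh1.S at 52.0 and 101.2, passed only through the depleted-labelled reading. Also above 0 were krt12.4.L at 0.48 and grhl1.L at 0.59, while krt12.4.S was at -0.15. Neural markers, with 4 of 4 genes above the filter, summed to 1886.4 and 1670.0, with a median of -0.18 and 3 of 5 probe sets below 0. Notochord markers, with 4 of 4, summed to 3129.4 and 3140.0, with a median of -0.08 and 4 of 5 below 0. Of 4 endodermal markers 3 had a probe set and 2 passed the filter. All endodermal probe sets summed to 299.6 and 568.6, and the 3 kept ones were above 0, with a median of 1.39. Of these, sox17a.L at 56.2 and 147.8 passed only through the depleted-labelled reading. So did a sox17b.1.S probe set, at 57.7 and 100.8. Those left out read 34.9 and 42.9 for sox17a.S, 48.6 and 48.3 for gata6.L, and 23.7 and 8.7 for gata6.S. Of the blood markers, 0 of 3 passed the filter, with a highest reading of 23.1. Neural and epidermal marker transcripts were thus present beside those of mesoderm, and the part of these tissues in the ribosomal protein values was not tested.

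Ribosomal protein transcripts were among the brightest on the array. The 90 probe sets are 0.581% of the frog probe sets and held 5.69% of the summed signal in the wildtype-labelled array and 5.11% in the depleted-labelled array. Of the 100 probe sets with the highest mean signal, 16 named a single gene of the family and 4 more named several of its genes. Of the 90 probe sets 83 passed the signal filter, a mean signal of 75 or more, which left 70 of the 73 genes with a value. Values below are log2 ratios of the depleted-labelled array over the wildtype-labelled array, centred on the median of all kept probe sets, and a gene is the mean over its kept probe sets.

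Most ribosomal protein genes read slightly lower in the depleted-labelled array, and none differed by 2-fold. Of the 70 genes 49 had a log2 ratio below 0, or 70.0%, where 50.8% of all 4543 genes did. The median was -0.14 over the 70 genes and 0.00 over the other 4473 genes, and the quartiles were -0.38 and 0.05 for the family and -0.20 and 0.17 for the other genes. At 1.5-fold or more, 3 of the 70 genes were lower and 0 were higher, where 3.08% and 2.00% of all genes were. At the small size of 1.2-fold, 24 genes were lower and 4 higher, against 19.5% and 15.9% of all genes. At 2-fold, 0 were lower and 0 higher, against 0.242% and 0.374% of all genes. Over the 580 genes of the array with more than 1 kept probe set, the pooled SD between a gene's probe sets was 0.23, and 38 of the 70 ribosomal protein values were no larger in size than that. Bright probe sets varied less, with a pooled SD of 0.14 over 65 other genes whose probe sets all reach a signal of 1000. Of the 70 values, dim members included, 22 lay within it. The family's own pooled SD between probe sets was larger, 0.29 over 9 genes, and 44 of the 70 values lay within that. Over the 5 ribosomal protein genes whose probe sets all reach 1000 it was 0.19, with 33 of the 70 values within.

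**Figure D1:**
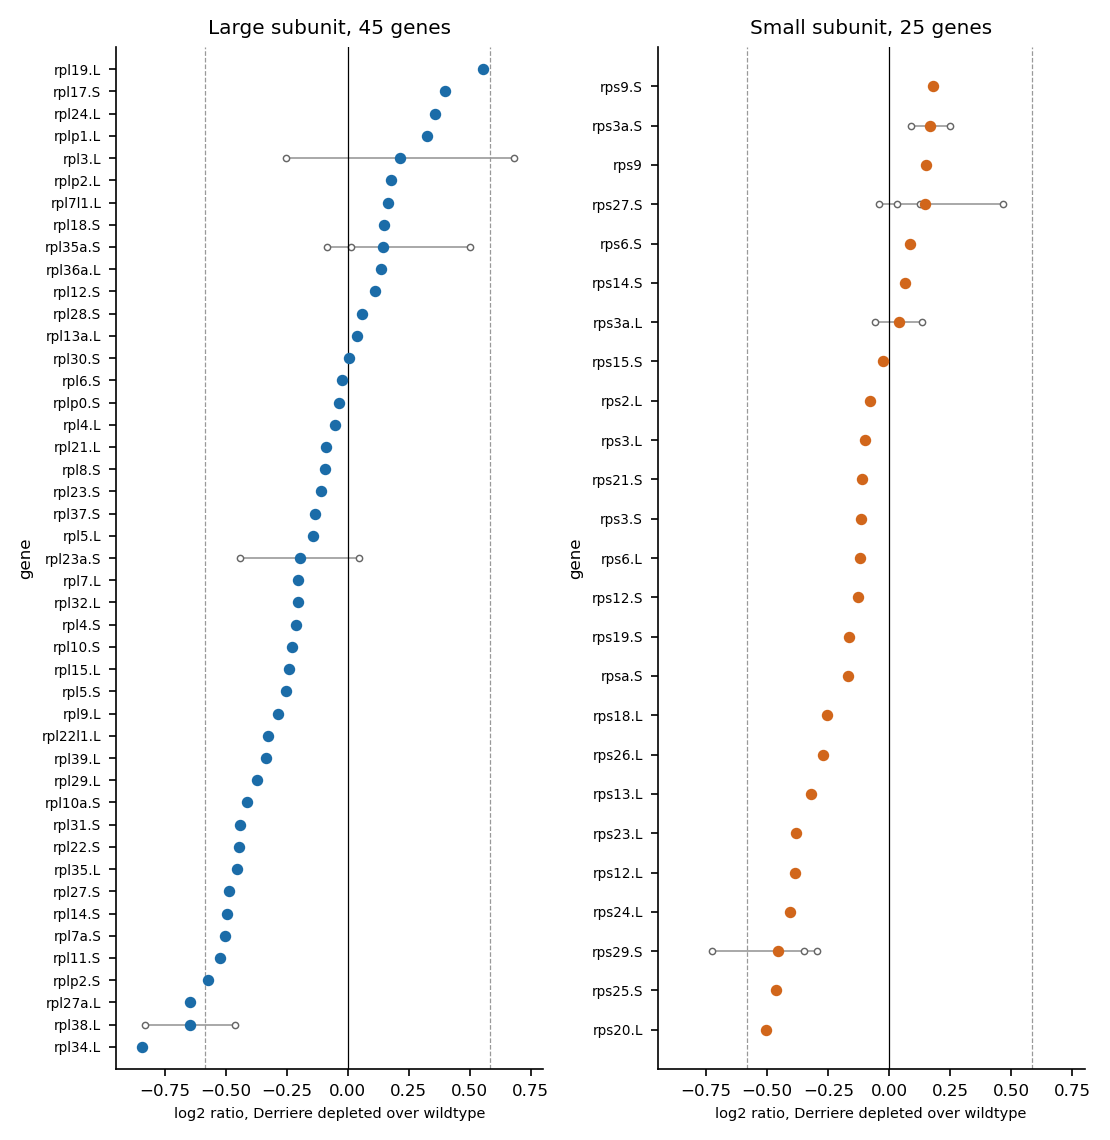
Log2 ratio of the depleted-labelled array over the wildtype-labelled array for the 45 large subunit and 25 small subunit genes that passed the signal filter, in order. Filled points are genes, open points joined by a line are the probe sets of genes with more than 1, and dashed lines mark 1.5-fold; 3 large subunit genes lie past the lower line and 0 genes past the upper one.

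The 3 genes past 1.5-fold were all large subunit genes of the long subgenome. Their number, 3 of 70, is near the share over all genes, 3.08% lower and 2.00% higher. Their make-up is therefore not read as a trait of the family. The lowest was rpl34.L, with a signal of 3468.9 in the wildtype-labelled array and 1945.7 in the depleted-labelled array, a log2 ratio of -0.84 or 1.79-fold lower. Its value rests on a probe set of the kind that Affymetrix marks as shared between transcripts, and a second, dim probe set read 3.2 and 10.2, under the signal filter. The next was rpl38.L, at -0.65 over 2 probe sets. In the mouse, Rpl38 is required for translation of a subset of Hox mRNAs and for normal patterning of the axial skeleton. The bright probe set of rpl38.L read 5535.6 and 3133.3, and the dim one 124.6 and 91.0, so both were lower in the depleted-labelled array, at -0.83 and -0.46. The last of the 3, rpl27a.L, read 7615.3 and 4904.5, a log2 ratio of -0.64. Which genes pass 1.5-fold depended on the processing. Under quantile normalization rpl27a.L was at -0.54 and rplp2.S at -0.59, past the threshold in its place. With loess on mean signal rpl27a.L was at -0.56, which left 2 genes. Without the signal filter rpl34.L was at -0.42. Its dim probe set was then included, with both readings raised to the floor of 19.7 and so counted as unchanged. By the brightest probe set rpl3.L was past 1.5-fold in the other direction, at 0.68.

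Just inside 1.5-fold, the stalk gene rplp2.S read 1201.3 and 812.2, a log2 ratio of -0.57. The rest of the 12 lowest genes lay between -0.52 and -0.45. They included rpl11.S, whose protein binds the 5S ribosomal RNA, at 5062.4 and 3549.9, and rps25.S, which in yeast and human cells supports initiation at internal ribosome entry sites, at 4476.0 and 3263.3. Both differed by less than 1.5-fold, and each rests on 1 probe set. The small subunit gene rps20.L read 206.0 and 146.0, a log2 ratio of -0.51, and the others were rpl7a.S, rpl14.S, rpl27.S, rps29.S and rpl35.L.

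The 12 highest genes had log2 ratios from 0.15 to 0.56. The highest was rpl19.L, whose protein sits at the rim of the exit tunnel and reaches across to the small subunit, with 1659.9 in the wildtype-labelled array and 2455.2 in the depleted-labelled array. Its ratio of 0.56 lies just inside 1.5-fold. The tunnel protein gene rpl17.S read 491.4 and 651.6, a log2 ratio of 0.40, and the subunit bridge gene rpl24.L read 1718.9 and 2219.9, a ratio of 0.36. In the mouse, a mutation of Rpl24 gives the Belly spot and tail phenotype, with a kinked tail. The stalk gene rplp1.L followed at 0.32, with 950.1 and 1197.3. The next was rpl3.L, a protein near the peptidyl transferase centre, at 0.22, but its 2 probe sets disagreed, at 0.68 and -0.25. The other 7 of these genes were rps9.S, rplp2.L, rps3a.S, rpl7l1.L, rps9, rpl18.S and rps27.S.

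Large and small subunit genes had medians on the same side of 0. Of 45 large subunit genes 31 were below 0, and their median log2 ratio was -0.20. Of 25 small subunit genes 18 were below 0, and their median was -0.12. Single genes had an SD of 0.31 in the large subunit and 0.21 in the small. The difference of the medians was -0.08 and was not tested. Under quantile normalization it was -0.014, with medians of -0.10 and -0.09. Large subunit genes ranged from -0.84 to 0.56 and small subunit genes from -0.51 to 0.18. All 3 genes past 1.5-fold and the 4 that were at least 1.2-fold higher belonged to the large subunit, which also has more genes here. This make-up of so few genes was not tested.

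Within the large subunit, 2 of the 3 structural groups held genes on both sides of 0. The acidic stalk, which recruits the translation GTPases, had 5 measured genes with a median of 0.11, from rplp2.S at -0.57 to rplp1.L at 0.32. Its base protein gene rplp0.S, one of the brighter genes, read 7220.2 and 7093.0, a ratio of -0.03, and rpl12.S read 0.11. The partners of the 5S ribosomal RNA, which also bind the p53 regulator Mdm2 when ribosome assembly is disturbed, were all below 0, with rpl5.L at -0.14, rpl5.S at -0.25 and rpl11.S at -0.52. Genes of the rim of the exit tunnel were split, with rpl35.L at -0.45 and rpl31.S at -0.44 against rpl17.S at 0.40 and rpl19.L at 0.56. Their median of -0.20 over 5 genes therefore describes none of these 4.

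Within the small subunit, genes of the head, the part that holds the decoding site together with the body and swings during translocation, were all below 0. The 10 measured head genes ranged from rps20.L at -0.51 to rps15.S at -0.03, with a median of -0.21. The value of rps20.L rests on 1 dim probe set, at 206.0 and 146.0, and both copies of rps3 and of rps12 are among the 10. The 15 genes of the body and platform had a median of -0.08, with 8 below 0 and 7 above, from rps24.L at -0.41 to rps9.S at 0.18. The medians differed by -0.13. Probe sets that name several copies of a gene, which were not used for these medians, gave further readings on the same arrays. All 5 for the head were below 0, rps20 at -0.39, rps15 at -0.32, rps16 at -0.25, rps10 at -0.19 and rps3 at -0.11, while for the body and platform 3 were below 0 and 3 above, from rpsa at -0.18 to rps3a at 0.33. Several of them read the same transcripts as the single-copy probe sets, so they are not independent, and the difference between head and body was not tested.

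**Figure D2:**
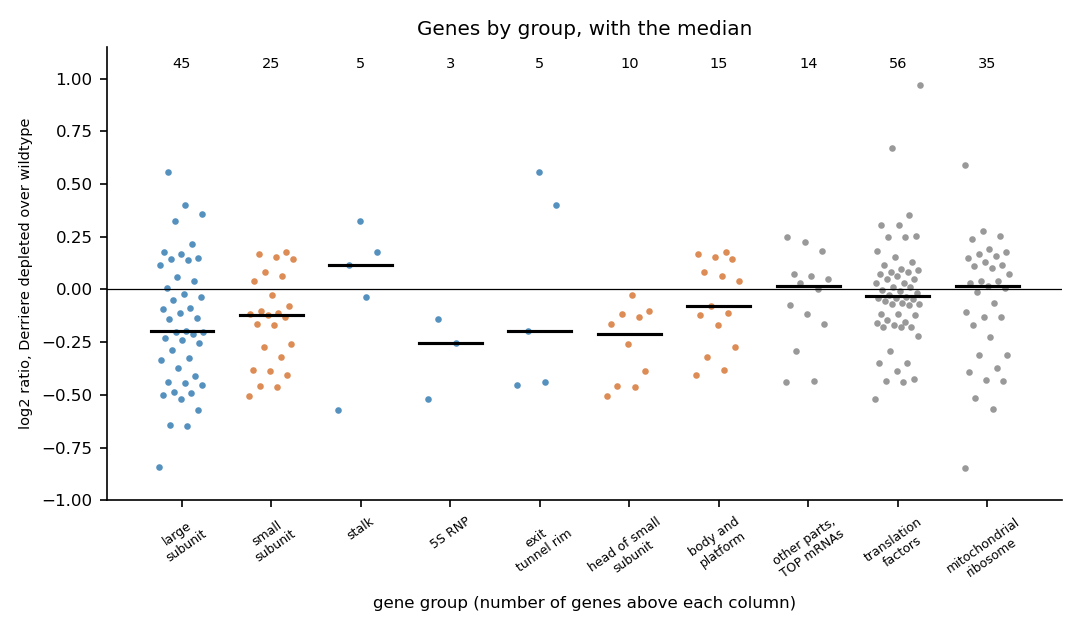
Log2 ratio of each gene by group, with a bar at the median and the number of genes above each column; blue marks the large subunit, orange the small subunit and grey genes outside the family. The 10 head genes of the small subunit lie below 0, while the 15 body and platform genes lie on both sides of it.

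Among ribosomal protein probe sets with a signal of 1000 or more, the median log2 ratio was lower in the brighter classes. For the 21 ribosomal protein probe sets with a mean signal of 5000 or more, 18 had a log2 ratio below 0 and the median was -0.24. The 35 between 2000 and 5000 had a median of -0.11, with 25 below 0. Between 1000 and 2000 the 19 probe sets had a median of 0.04, with 9 below 0, and the 8 below 1000 had 4 on each side of 0 and a median of -0.10, so the order did not extend to dim probe sets. In the brightest class the subunits were alike, at -0.24 for 11 large subunit and -0.21 for 10 small subunit probe sets, and between 2000 and 5000 the large subunit read -0.22 and the small subunit -0.06.

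Other named transcripts of the same brightness leaned the same way by a smaller amount. The 70 other named probe sets at 5000 or more had a median of -0.05, with 67.1% below 0, so the family's median there was lower by -0.20. For the 278 between 2000 and 5000 the median was -0.02 and for the 574 between 1000 and 2000 it was 0.00. Across the 83 ribosomal protein probe sets the log2 ratio correlated with the mean log2 signal at Pearson r = -0.20 and Spearman rho = -0.27. By gene, r was -0.28 and rho -0.32 over 45 large subunit genes, and r was -0.02 and rho -0.24 over 25 small subunit genes. These are descriptions, since the points share the arrays and both quantities come from the same readings. The 6 brightest genes in the wildtype-labelled array by their highest probe set were rpl10a.S at 9811.0, rps19.S at 9318.8, rpl35a.S at 9208.3, rps12.L at 9075.0, rpl35.L at 8690.9 and rps2.L at 8446.5. The ratios of these 6 probe sets were all below 0, from rpl35.L at -0.45 to rps2.L at -0.08. They were chosen by the wildtype-labelled signal, the denominator of the ratio, and such a choice itself favours lower ratios.

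**Figure D3:**
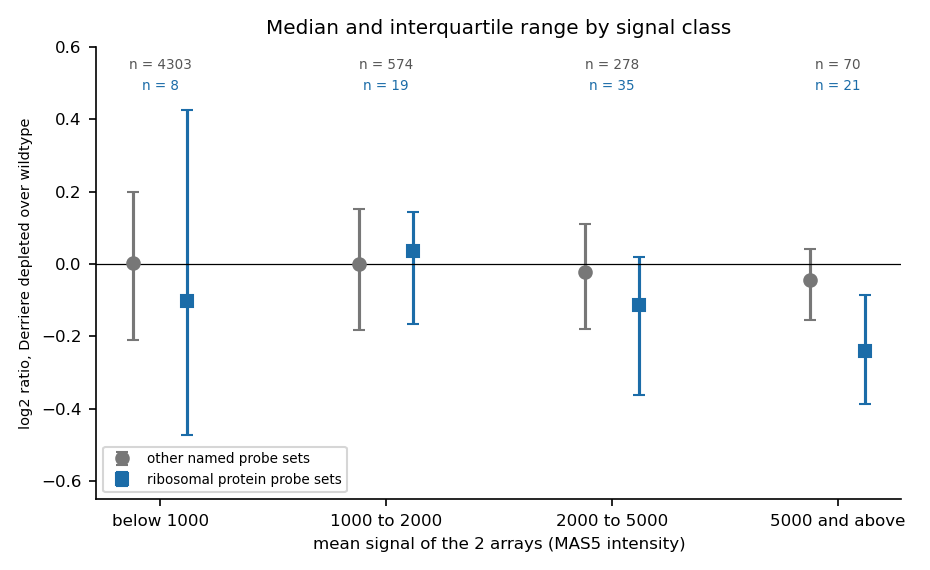
Median log2 ratio with the interquartile range in 4 classes of mean signal, for ribosomal protein probe sets (squares) and other named probe sets (circles), with the number of probe sets above each pair in grey for the others and blue for the family. The family's median goes from 0.04 between 1000 and 2000 to -0.24 at 5000 and above, where the other probe sets have -0.05.

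Control transcripts that are not of the frog read lower in the depleted-labelled array by a similar amount. The transcripts bioB, bioC, bioD and cre, of bacterial and phage origin, are those that the standard Affymetrix protocol adds to the hybridisation mix. Of their 18 probe sets above the signal filter 16 were below 0, and the median was -0.22. The 4 probe sets of cre, the brightest, read from 5311.2 to 10514.6 in the wildtype-labelled array and had a median of -0.16. Probe sets of 1 control transcript are not independent. The ratio of 3′ to 5′ signal, a measure of RNA and labelling quality, can be read for the 2 frog control transcripts with both probe sets above the signal filter, and it moved in opposite directions. For beta-actin it went from 4.74 in the wildtype-labelled array to 3.54 in the depleted-labelled array, and for a1Act from 65.3 to 71.6. The part of hybridisation, labelling and RNA quality in the ribosomal protein values was not tested.

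**Figure D4:**
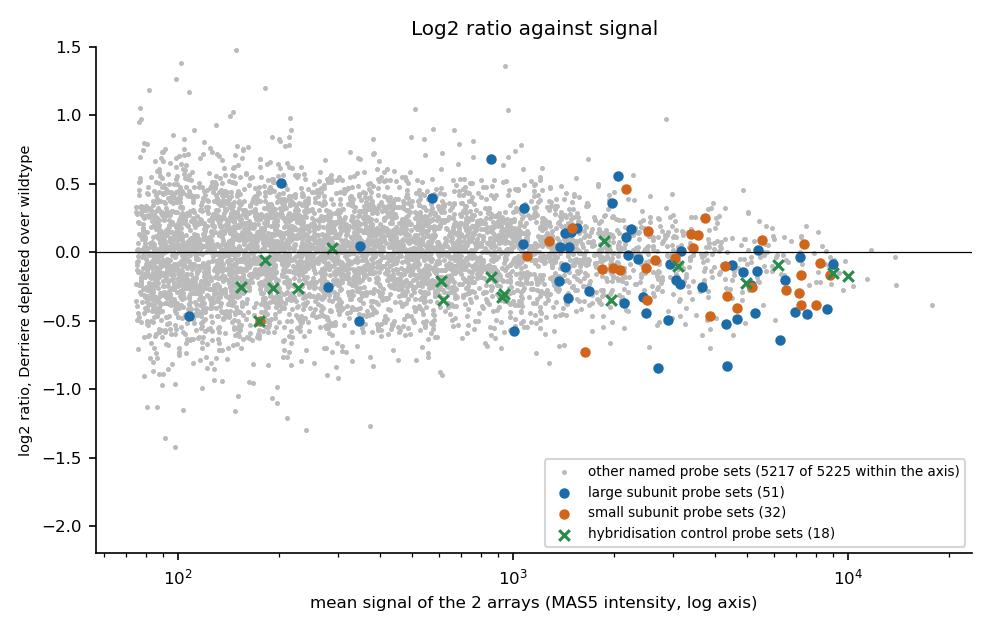
Log2 ratio against mean signal on a log axis for large subunit probe sets (blue), small subunit probe sets (orange), hybridisation control probe sets (green crosses) and other named probe sets (grey). The family gathers at the bright end, where 18 of its 21 probe sets at 5000 or more lie below 0, and 16 of the 18 control probe sets lie below 0 along the whole range.

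The .L and .S copies of the family had medians on the same side of 0. The median was -0.20 over 33 .L copies, 24 of them below 0, and -0.12 over 36 .S copies, 25 of them below 0. In the small subunit it was -0.27 over 11 .L copies, 10 below 0, and -0.11 over 13 .S copies, 8 below 0. In the large subunit it was -0.17 over 22 .L copies and -0.20 over 23 .S copies. These sets hold mostly different proteins, so the direct comparison is that of the 7 genes with both copies measured. Their median difference, .L minus .S, was 0.01, with .L above .S in 4 and below it in 3. It was -0.06 over 8 genes without the signal filter and 0.09 under quantile normalization. The large subunit genes rplp2, rpl4 and rpl5 had .L above .S, as did rps3 by 0.01. The small subunit genes rps12, rps6 and rps3a had .L below .S, so the median joins opposite directions. This difference between subunits was not tested. The median size of the difference was 0.16, against 0.21 for 517 other pairs of the array. These pairs were not matched on brightness. The median log2 signal was 8.21 over all other .L copies and 8.31 over all other .S copies, against 11.3 for the family.

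The copies of the stalk gene rplp2 stood farthest apart. The .L copy read 1449.8 in the wildtype-labelled array and 1648.4 in the depleted-labelled array, a log2 ratio of 0.18, while the .S copy gave the -0.57 described above. The difference of 0.75 is the largest of 7 pairs, and each copy rests on 1 probe set. The pooled SD of 0.23 between probe sets of 1 gene describes single values, so it is no measure for a difference between 2 of them. The 2 probe sets of rpl3.L alone lay 0.93 apart, more than the copies of rplp2. For rps12 the copies read -0.39 for .L and -0.13 for .S, and for rps6, the S6 kinase substrate, -0.12 and 0.08. The copies of rps3 read -0.10 and -0.11, and the probe set naming both copies of rps3 also read -0.11. For rps3a the copies read 0.04 for .L and 0.17 for .S, and the probe set naming both read 0.33. The .L value is a mean of probe sets on both sides of 0, at -0.06 and 0.13. The copies of rpl5 read -0.14 and -0.25, and those of rpl4 -0.05 and -0.21, with both copies together at -0.29 and -0.01.

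**Figure D5:**
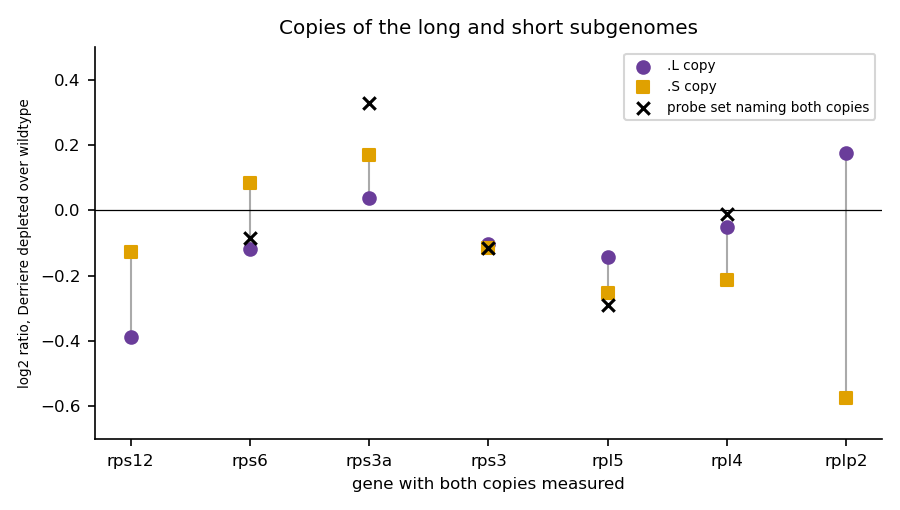
Log2 ratio of the .L copy (circles), the .S copy (squares) and, where there is one, the probe set that names both copies (crosses) for the 7 genes with both copies measured. The copies of rplp2 lie 0.75 apart, and those of rps3 differ by 0.01.

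Probe sets of the same ribosomal protein gene differed among themselves. The pooled SD within the 9 genes with more than 1 kept probe set was 0.29, close to the SD of 0.28 among the 70 genes. Over the 5 of them whose probe sets all reach a signal of 1000 it was 0.19. The widest gap was in rpl3.L, where 1 probe set read 658.5 and 1063.3 and the other 302.6 and 255.7. For rpl35a.S the 3 probe sets spanned 0.59, with the brightest at -0.08 and the dimmest, at 166.9 and 238.1, at 0.50. The 4 probe sets of rps27.S spanned 0.51 and the 2 of rpl23a.S 0.49. The brightest probe set had the lower ratio than the dimmest in 6 of the 9 genes and the higher in 3. The 3 probe sets of rps29.S were all below 0, from -0.73 to -0.30.

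Genes that work beside the ribosomal proteins had medians close to 0. The list of other ribosomal parts and of further messenger RNAs of the 5′ TOP class had 14 measured genes with a median of 0.02, and 6 were below 0. Some subunits of elongation factor 1 were among its lowest, eef1b2.L at -0.44, eef1d.S at -0.44 and eef1g.L at -0.29. The other copies eef1d.L and eef1g.S read 0.07 and 0.05. Both eef1d copies were dim, at 170.0 and 126.4 for .S and 112.4 and 119.0 for .L. The bright probe set of eef1b2.L read -0.28 and the dim one -0.60. The nucleolar protein genes npm1.L and npm1.S read -0.16 and -0.12. In the same list fau.L, whose product is cleaved into a ubiquitin-like protein and a small subunit protein, read 2061.4 and 2076.6, a ratio of 0.00. The elongation factor gene eef1a1.S read 0.06 over probe sets as bright as those of the family, the brighter at 11598.8 and 11794.1. Another, eef2.1.L, read 0.12, but was left out of the 14 because the list names it eef2. The poly(A)-binding protein genes pabpc1.L and pabpc1.S read -0.08 and 0.25. Translation factors were taken by symbol, as genes starting with eif and a digit, eef1, eef2, gspt, etf1 or pabpc. Such a rule also takes in genes that are not themselves factors, such as eef1akmt1.S and eif4ebp2.S. This group had a median of -0.03 over 56 genes, with 32 below 0. The group was dimmer, at a median log2 signal of 10.4 against 11.3 for the cytoplasmic family, so it was not matched on brightness. Values in it ran from the release factor gene etf1.S at -0.52 to the helicase gene eif4a1.L at 0.97, which read 1920.8 and 3787.2. Bright translation factors lay on both sides of 0. Among those lower were eif5a.L, at 10569.3 and 8767.8 in its brightest probe set, and eif3d.S, at 8489.7 and 7721.8. Higher or level were eif4a3.1.S, at 6523.6 and 6948.3, and eif1b.L, at 7173.5 and 7211.7. Mitochondrial ribosomal proteins, which build the separate ribosome of that organelle, had a median of 0.02 over 35 genes, with 16 below 0. Their probe sets were much dimmer, with a median log2 signal of 7.49 against 11.3 for the cytoplasmic family, so they do not show how bright transcripts behave. The difference between these groups and the family was not tested.

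The paralogs rpl22l1.L and rpl7l1.L had values within the range of the family, and rpl3l.L had no value. The large subunit paralog rpl22l1.L read 2699.5 and 2165.3, a log2 ratio of -0.33, and the gene it resembles, rpl22.S, read -0.44. The paralog rpl7l1.L read 2110.7 and 2383.9, a ratio of 0.17, where rpl7.L read -0.20. The muscle-type paralog rpl3l.L, known from mammals as the form of rpl3 in heart and skeletal muscle, read 2.5 and 2.4, below the floor of 19.7. Near-identical copies can share signal, so the share of each copy is uncertain.

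The members below the signal filter were rpl3l.L, rpl28.L and rps10.L. The single probe set of rpl28.L read 62.0 and 45.9, while rpl28.S read 1046.5 and 1097.0 with a ratio of 0.06. Both probe sets of rps10.L were dim, with the brighter at 67.4 and 74.5, whereas the probe set naming both rps10 copies read 2548.6 and 2242.0. Of the kept members the dimmest probe set was that of rpl38.L with a mean of 107.8, and the brightest left out was that of rps10.L with a mean of 71.0. The 6 dimmest kept genes in the wildtype-labelled array, by their highest probe set, were rps20.L, rpl7a.S at 406.3, rpl17.S, rpl3.L, rplp1.L and rpl28.S, and all but rpl28.S were among the 12 lowest or 12 highest ratios. The probe set naming both rps20 copies read 15439.7 and 11893.1, the brightest reading of the family. In the RefSeq gene table, 78 protein names met the rule, of which 14 had no probe set with a single symbol, and 3 of these, rps4x, rps7 and rps16, were read by probe sets naming several copies, at 0.01, -0.12 and -0.25.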

How the data were processed

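Total RNA from the pieces was extracted with Trizol and 6 µg was labelled with biotin, per the labels' protocols. The authors deposited linear probe set intensities, for which MAS5 is named in the submitters' processing notes. Its version and scaling, and any detection calls, are not stated there. Precision is limited by the number of arrays.

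The 120 control probe sets were set apart. Of 15491 frog probe sets 9304 had 1 gene symbol in the platform annotation, 195 several and 5992 none, and 2 symbols, none of a member, were updated through the RefSeq table. Signals below 19.7, the 25th percentile, were raised to it and turned to log2. Probe sets with a mean signal at or above the median of 75 were kept, 7747 in all, and ratios were centred on their median, a shift of 0.0089. A gene was the mean of its kept probe sets, which gave 4543 genes. A fixed size of 1.5-fold counted a gene as higher or lower, with 1.2-fold and 2-fold beside it.

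The members and lists were chosen with earlier results of these data known. Genes named were the 12 highest and lowest, the brightest and dimmest, homeolog pairs, and genes whose probe sets disagree. Also named were stalk genes, 5S ribosomal RNA partners, paralogs, members under the filter and members at a threshold. Genes of the other lists were picked after their values were seen. So were rps20, rps15, rps16 and rps10 of the probe sets naming several copies. The translation factors eif4a1.L, etf1.S, eif5a.L, eif3d.S, eif4a3.1.S and eif1b.L were also picked in this way. Protein length and promoter sequences were not analysed here. The procedure recovered 3 of 3 shifts, no shift among them, put into simulated arrays of 7746 kept probe sets. The tolerance was no smaller than the difference between the subunit medians, so differences of that size were not checked. The simulated ratios had no trend with signal. Python 3.11.15, numpy 2.4.6, pandas 2.3.3, scipy 1.17.1, statsmodels 0.14.6 and matplotlib 3.10.9 were used.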

Additional observations from a re-analysis of the deposited data

How the results depend on the processing

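The family's median stayed below 0 in all 10 alternative settings of floor, centring, filter, gene summary and probe set choice, and as a mean it was -0.15. It was -0.10 under quantile normalization and -0.093 with loess on mean signal, with 46 of 70 genes below 0 under each. Both settings also take out a trend of the ratio with signal, and they brought the large subunit to -0.10 and -0.11. The large minus small subunit difference was -0.014 under quantile normalization. The mitochondrial median was -0.069 with the filter at the 75th percentile, which left 13 genes. The count of genes past the threshold was 3 at 1.5-fold, 28 at 1.2-fold and 0 at 2-fold. The 28 were 24 lower and 4 higher, where 19.5% and 15.9% of all genes were past 1.2-fold. At 2-fold 0.242% and 0.374% of all genes were. Of 699 single-gene values 6 moved by more than the pooled SD of probe sets, in rpl34.L (-0.42 without the filter), rps6.S (0.42 without the filter), rpl3.L (0.68 at the stricter filter and by its brightest probe set), rpl23a.S (-0.44) and rpl35a.S (-0.08), both by the brightest probe set. With the 14 probe sets naming several genes of the family added to the 70 genes as entries of their own, 60 of 84 entries were below 0. Many of the added entries read genes that were already counted. All settings start from the MAS5 signals, so the steps of MAS5 itself were not varied. No paired analysis was possible because there was 1 array in each group, and leaving out a replicate was not possible either.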

Other observations

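Bright probe sets without a gene symbol leaned like the ribosomal protein genes. The 19 with a mean signal of 5000 or more had a median log2 ratio of -0.24, with 78.9% below 0, and the files do not say which genes they read. Those between 2000 and 5000, 61 in number, had a median of -0.02. A further 3 probe sets name a ribosomal protein gene together with a gene outside the family. They read -0.26 for rpl21.L with a clone-named gene, 0.19 for rplp1.L with another, and 0.12 for rpl13.S with casc3.S. The single-symbol probe sets of rpl21.L and rplp1.L read -0.09 and 0.32, the same direction in each case.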
